A study of Mus musculus with 2 samples.

Results

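The genes were Smoc2, Vsnl1, Cpne5, Ntm, Rgs4 and Rgs6, known as markers of the sinoatrial node, and the Popeye genes Bves, Popdc2 and Popdc3. Their levels were followed in cells sorted from nodes with intact or floxed Isl1. The genes were selected by gene symbol from a list of names, and all 9 were present among the 12446 symbols of the gene table. Cells came from ICR mouse embryos and carried Hcn4-CreERT2, a recombinase that tamoxifen activates where the pacemaker channel gene Hcn4 is on, together with the Rosa-tdTomato reporter. The control group had intact Isl1 (Isl1+/+) and the mutant group floxed Isl1 (Isl1f/f), and both carried the recombinase and the reporter. Both groups received tamoxifen at E10.5 (E, embryonic day) and were harvested 36 hours afterwards, while the stage label gives E12.5, which is later than those 36 hours. Nodes of 1 genotype were pooled, depleted of endothelial cells with CD31 beads and sorted for tdTomato, and the labels do not say how many embryos a pool held. Each genotype had 1 library, so no difference below has a replicate check and none was tested.

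The sinoatrial node is the small region of the right atrium where the heartbeat starts, and Isl1 is a LIM homeodomain transcription factor needed to form and maintain it. Vagal nerves slow the node through muscarinic receptors and their Gi proteins. RGS proteins, such as those made by Rgs4 and Rgs6, speed the hydrolysis of GTP on the G protein and so shorten that signal. Popeye proteins sit in the muscle cell membrane and bind cyclic AMP, the messenger through which adrenergic nerves speed the node, and mice without Bves or Popdc2 are known for a node that fails to keep its rate under stress.

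The RefSeq promoter table (GRCm38.p6, a later build than the mm9 coordinates of the expression table) held windows for 6 of the 9 genes, 8 windows in all, and had no entry for Smoc2, Bves and Popdc3. The 250 bases before the start are shown for the pair of RGS genes, which act on 1 pathway and differed in the size of their change, and for Vsnl1, the gene with the next lowest ratio after Rgs4. They are written 5′ to 3′ on the strand of the gene, and capitals mark the motif matches, all of which are CANNTG (E-box) except for a TAAT and a TTATCA in Rgs6. The windows are chr1:169747643-169747892 (minus strand) for Rgs4, chr12:82617249-82617498 (plus strand) for Rgs6 and chr12:11436579-11436828 (minus strand) for Vsnl1.
Rgs4: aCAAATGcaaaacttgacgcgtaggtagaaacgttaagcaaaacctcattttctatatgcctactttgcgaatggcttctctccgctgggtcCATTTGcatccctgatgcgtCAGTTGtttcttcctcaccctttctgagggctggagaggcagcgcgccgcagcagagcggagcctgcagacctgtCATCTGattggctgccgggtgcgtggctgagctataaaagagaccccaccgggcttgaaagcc
Rgs6: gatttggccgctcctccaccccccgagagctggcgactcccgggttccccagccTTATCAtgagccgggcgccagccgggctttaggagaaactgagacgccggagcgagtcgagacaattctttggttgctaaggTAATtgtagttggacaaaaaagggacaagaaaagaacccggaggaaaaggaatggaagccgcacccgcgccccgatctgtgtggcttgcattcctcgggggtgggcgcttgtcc
Vsnl1: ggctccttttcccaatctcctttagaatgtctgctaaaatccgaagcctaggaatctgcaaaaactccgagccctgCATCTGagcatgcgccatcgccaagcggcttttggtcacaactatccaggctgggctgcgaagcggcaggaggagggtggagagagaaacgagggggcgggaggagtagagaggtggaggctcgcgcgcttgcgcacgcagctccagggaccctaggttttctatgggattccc

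Motifs searched on both strands were TAAT, the homeodomain core; CTAATG, a LIM homeodomain form of it; AGGTGT, a T-box core; CANNTG, the E-box; and TGATAA, the GATA motif, which reads TTATCA on the other strand, as in Rgs6. No matches overlapped in these windows. Rgs4 held 4 E-boxes, at 249, 158, 138 and 63 bases before its start, and at least 4 were held by 3.84% of all 32851 windows of that length. Rgs6 held no E-box, but 1 TAAT at 114 bases and 1 GATA motif at 196 bases before its start. At least 1 TAAT was held by 54.9% of all windows and at least 1 GATA motif by 7.94%. The Vsnl1 window shown held 1 E-box, as did that of Popdc2 and each of the Ntm windows, and 66.2% of all windows held at least 1. The other Vsnl1 window held no match. In Ntm, 1 of the 2 windows held 3 TAAT, a number reached by 17.3% of all windows. CTAATG (6.36% of all windows) and AGGTGT (11.8%) matched none of the 8 windows. The Cpne5 window held no match and was rich in G and C, at 76.4% against a median of 52.4% over all windows. A match describes these letters and is not a binding site.

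Levels are in RPKM, reads scaled to exon length and to the library total, which puts genes of different lengths on 1 scale. The control library held 110117186 reads and the mutant library 119018888. Isl1 itself was at 7.65 RPKM in control cells and 1.52 RPKM in mutant cells, 19.9% of the control level, as the labels would have it. Folds below are ratios of RPKM, with exact binomial 95% intervals for the error of counting alone, which leaves out that PCR copies are not independent. Log2 ratios are log2 of (mutant RPKM + 1) over (control RPKM + 1), a scale that understates the change of low genes. A gene was called by size when this value was at least 1 in either direction and the gene reached 5 RPKM in at least 1 library.

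All 6 node markers were lower in the mutant library and all 3 Popeye genes were higher, Popdc3 only as long as ratios were not centred on cardiac muscle genes. Rgs4 had the lowest ratio of the 9, at 26.0% of its control level, and Smoc2, the most abundant node marker, lost the most RPKM. Of the 9 genes, 1 (Rgs4) was called lower by size, against 2.68% of the 6343 genes at 5 RPKM (1.58% with ratios centred on genes of the same level), and 0 were called higher, against 1.01% (1.37%). Without a minimum size, 6 of the 9 were lower, against a background of 61.9% of the genes at that level, and 3 were higher, against 38.1%, so that the count of directions alone was close to that of the whole table. At a 1.5-fold threshold on this log2 scale, 4 were lower (Rgs4, Vsnl1, Smoc2 and Ntm), against 11.8%, and 0 higher, against 3.77%. As plain ratios of RPKM, Rgs6 (1.504-fold lower) and Bves (1.51-fold higher) also lay past 1.5-fold. The median log2 ratio was -0.75 over the 6 node markers and -0.57 over all 9 genes, beside -0.10 over all genes at 5 RPKM and -0.18 over all symbols. With the ratios centred on 9 general cardiac muscle genes, whose median log2 ratio was 0.21, Popdc3 turned to -0.048 and Rgs4, Vsnl1 and Smoc2 were all called lower, against 5.83% of all genes at 5 RPKM under that centring. In sorted bulk cells, fewer cells of a type and less RNA per cell cannot be told apart.

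**Figure D1:**
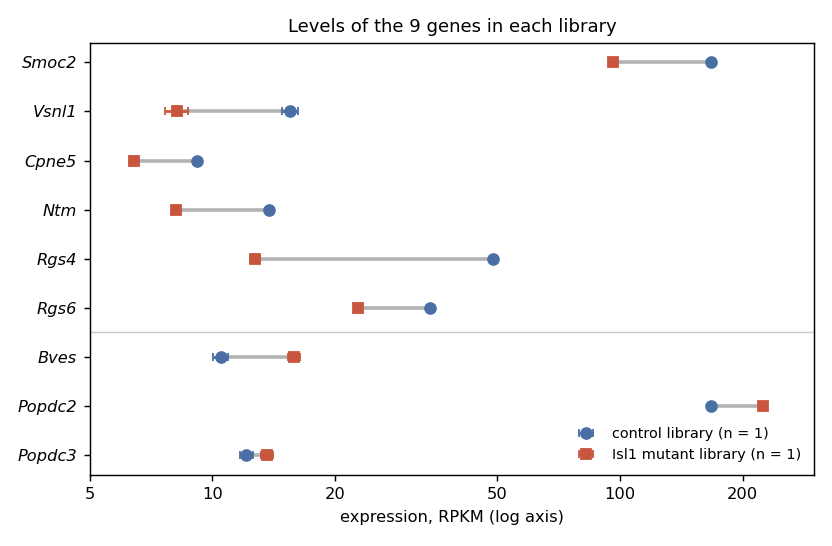
Level of each gene in RPKM on a log axis, with circles for the control library, squares for the mutant library and bars for the 95% Poisson interval of the reads (narrower than the symbol for most genes). The 6 node markers above the grey line moved left in the mutant library and the 3 Popeye genes below it moved right, Popdc3 least, from 12.1 to 13.6 RPKM, a direction that turned when ratios were centred on cardiac muscle genes.

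Rgs4 (ENSMUSG00000038530, mm9 chr1:171671608-171677773, minus strand) encodes a small RGS protein known to limit vagal slowing in the node. It was at 48.9 RPKM in control cells (at least 17173 reads) and 12.7 RPKM in mutant cells (at least 4827 reads). The control library was the high one, and the mutant library had 26.0% of its level. This was 3.85-fold lower (interval 3.72 to 3.97), a log2 ratio of -1.86. Among the 6343 genes at 5 RPKM, Rgs4 had rank 20 from the lowest ratio. By level it went from rank 724 of all symbols in the control library to rank 2832 in the mutant library. Genes of the same level, taken from 10 equal bins, had a median log2 ratio of -0.07.

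Rgs6 (ENSMUSG00000021219, mm9 chr12:83717912-84259755, plus strand) encodes an RGS protein that works in a complex with the Gnb5 protein and speeds the closing of the potassium channels that muscarinic receptors open. Its level was 34.2 RPKM in control cells (at least 11493 reads) and 22.7 RPKM in mutant cells (at least 8262 reads). It was 1.504-fold lower (1.46 to 1.55), a log2 ratio of -0.57, which is under the size rule. The pair of RGS genes therefore changed order: the Rgs4 level was 1.43 times that of Rgs6 in the control library and 0.560 times in the mutant library. Gnb5 went the other way from its partner, from 61.8 to 77.9 RPKM, and the ratio of Rgs6 to Gnb5 went from 0.552 to 0.292. The small RNA gene SNORA17 lies within Rgs6 on the opposite strand over 136 bp, and at 1.14 and 0.311 RPKM it was far below it.

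Vsnl1 (ENSMUSG00000054459, mm9 chr12:11332053-11443455, minus strand) encodes visinin-like 1, a calcium sensor of the neuronal calcium sensor family that is also made in node cells. It was at 15.5 RPKM in control cells (at least 1709 reads) and 8.18 RPKM in mutant cells (at least 974 reads). This was 1.90-fold lower (1.75 to 2.05), with a log2 ratio of -0.85. Its interval was the widest of the 9, but it rests on the smallest reads that fit and may be wider than needed. Vsnl1 had rank 301 from the lowest ratio.

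Smoc2 (ENSMUSG00000023886, mm9 chr17:14416513-14541797, plus strand) encodes a secreted calcium-binding matrix protein of the SPARC family. The control library had 167.6 RPKM (at least 70394 reads) and the mutant library 95.9 RPKM (at least 43548 reads). It fell from rank 178 to rank 327 of all symbols by level, and was 1.75-fold lower (1.73 to 1.77), a log2 ratio of -0.80. The bin of the highest levels, to which Smoc2 belongs, had a median log2 ratio of 0.02. Genes with a lower ratio made up 5.64% of those at 5 RPKM.

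Ntm (ENSMUSG00000059974, mm9 chr9:28802335-29770726, minus strand) encodes neurotrimin, a cell adhesion protein of the IgLON family that is anchored in the membrane. It was at 13.8 RPKM in control cells (at least 10648 reads) and 8.14 RPKM in mutant cells (at least 6786 reads), 1.70-fold lower (1.64 to 1.75). Cpne5 (ENSMUSG00000024008, mm9 chr17:29293495-29374742, minus strand) encodes a copine, a protein that binds phospholipids when calcium is present. It was at 9.19 RPKM in control cells (at least 10746 reads) and 6.43 RPKM in mutant cells (at least 8123 reads), 1.43-fold lower (1.39 to 1.47). The log2 ratios were -0.70 for Ntm and -0.46 for Cpne5. Cpne5 was the node marker nearest to its background: its log2 ratio was 0.31 below the median of genes of its level, against 1.80 below for Rgs4.

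Bves (ENSMUSG00000071317, mm9 chr10:45055568-45089514, plus strand), also known as Popdc1, had the largest change of the Popeye genes. Its level was 10.48 RPKM in control cells (at least 2030 reads) and 15.9 RPKM in mutant cells (at least 3323 reads). The mutant library was the high one, 1.51-fold higher (1.43 to 1.60), a log2 ratio of 0.56 and rank 268 from the highest ratio. Genes of its level had a median log2 ratio of -0.11, so that Bves was 0.67 above them.

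Popdc2 (ENSMUSG00000022803, mm9 chr16:38362295-38378302, plus strand) was the most abundant Popeye gene in both libraries. It was at 167.4 RPKM in control cells (at least 55839 reads) and 224.4 RPKM in mutant cells (at least 80939 reads), 1.34-fold higher (1.33 to 1.36), a log2 ratio of 0.42. It moved from rank 179 to rank 129 by level. Popdc2 overlaps the end of Cox17, a mitochondrial gene on the same strand, over 89 bp, and Cox17 was at 2.52 and 3.58 RPKM, a small part of the Popdc2 level.

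Popdc3 (ENSMUSG00000019848, mm9 chr10:45009111-45038256, plus strand) lies 17312 bp before Bves on the same strand. It was at 12.1 RPKM in control cells (at least 2693 reads) and 13.6 RPKM in mutant cells (at least 3277 reads), 1.13-fold higher (1.07 to 1.19). Its log2 ratio of 0.16 was the smallest in size of the 9 and turned to -0.048 when ratios were centred on cardiac muscle genes. The neighbours exchanged places: the Bves level was 0.865 times that of Popdc3 in the control library and 1.16 times in the mutant library. Popdc2 stood far above both, at 16.0 times Bves in the control library and 14.1 times in the mutant library.

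The order of levels changed between the libraries. In the control library Smoc2 and Popdc2 led and did not differ beyond counting error (Poisson intervals 166.3 to 168.8 and 166.0 to 168.7 RPKM), followed by Rgs4, Rgs6, Vsnl1, Ntm, Popdc3, Bves and Cpne5. In the mutant library Popdc2 led alone, with Smoc2 at 0.427 times its level. Rgs6, Bves, Popdc3 and Rgs4 came next, and then Vsnl1 and Ntm, whose intervals overlapped (7.67 to 8.71 and 7.95 to 8.34 RPKM). Cpne5 was lowest in both. Rgs4 thus passed from above to below Bves and Popdc3, as did Vsnl1 and Ntm.

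**Figure D2:**
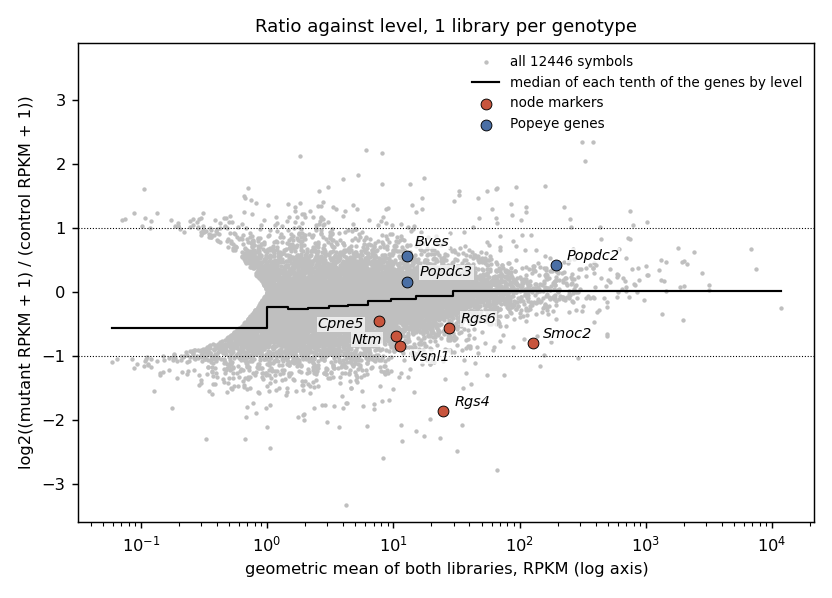
Log2 ratio, log2((mutant RPKM + 1)/(control RPKM + 1)), against the geometric mean of both libraries in RPKM on a log axis, for all 12446 symbols (grey), the node markers (red) and the Popeye genes (blue). The black line is the median of each of 10 equal bins of level and the dotted lines mark 1 and -1: Rgs4 at -1.86 is the only one of the 9 beyond them, the node markers lie below the line and the Popeye genes above it (Popdc3 at 0.16, which turned negative when ratios were centred on cardiac muscle genes).

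Relatives and partners of these genes were taken from lists of each family. Every symbol in the gene table reached at least 1.00 RPKM in 1 library, so genes not measured may only have been low. A gene under 1 RPKM in the other library was listed only through its higher one. That filter fixed its direction in the counts, as for Rgs17, Rgs18 and Kcnip2, and it holds for the partner and marker lists too. Of 21 RGS genes listed, 11 were measured, with 3 higher and 8 lower and a median log2 ratio of -0.45, beside 32.9% higher and 67.1% lower over all symbols. Of the 6 RGS genes at 5 RPKM, 1 was called lower by size (Rgs4). Rgs12, a large RGS protein with several further domains, came next to Rgs4 in RPKM lost, from 35.1 to 18.5 RPKM, 1.89-fold lower (1.86 to 1.93). Rgs3 was at 9.67 and 6.80 RPKM, Rgs19 at 10.1 and 8.34 RPKM, and Rgs10 at 5.92 and 6.44 RPKM, in the control and mutant library. The others were low genes, under 5 RPKM in both: Rgs2, Rgs16 and Rgs18 were lower and Rgs11 and Rgs17 higher. Rgs11, a relative of Rgs6 that also pairs with Gnb5, was at 1.32 and 4.88 RPKM. Rgs18 was at 1.08 RPKM in control cells and 0.0399 RPKM in mutant cells. Whole reads could not be recovered for it and its mutant value may stand in for no reads, so no fold is given.

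A list of RGS partners and of G protein subunits, receptors and channels of the muscarinic potassium channel pathway held 16 genes. Of these 13 were measured, 2 higher and 11 lower, with a median of -0.32, beside 67.1% lower over all symbols. With centring on genes of the same level the list had 4 higher and 9 lower, with a smaller median of -0.084. That centring subtracts the median of each bin of level, so by design about as many of all symbols are lower as higher. Gnb2, a G protein beta subunit, was called lower by size, at 11.0 RPKM in control cells and 4.69 RPKM in mutant cells. Gnai3, an inhibitory alpha subunit, was at 42.7 and 27.4 RPKM, 1.56-fold lower (1.52 to 1.60).

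The SPARC family was measured in full, and all 8 genes were lower, beside 67.1% over all symbols. With equal upper quartiles or centring on genes of the same level, 7 of the family were lower. The median was -0.45, and of the 4 genes at 5 RPKM none was called by size. Smoc1 (log2 ratio -1.35) and Spock1 (-1.02) passed the 2-fold size but lay below 5 RPKM. Sparc itself, the most abundant, was at 400.2 and 375.0 RPKM, 1.07-fold lower (1.06 to 1.07), and Fstl1 at 205 and 167 RPKM. Smoc2 was at 0.419 times the Sparc level in the control library and 0.256 times in the mutant library. Smoc1, its closest relative, was a low gene at 1.88 and 0.133 RPKM. Spock1 was at 1.86 and 0.415 RPKM, Sparcl1 at 8.65 and 5.68 RPKM, and Spock2 and Spock3 were under 3 RPKM in both.

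Of 11 neuronal calcium sensors, 7 were measured, 3 higher and 4 lower, with a median of -0.35, beside 67.1% lower over all symbols. Hpcal1, a relative of Vsnl1, was at 7.34 and 3.31 RPKM, 2.22-fold lower (2.02 to 2.44), a log2 ratio of -0.95 that is just under the size rule. Kcnip4, a subunit of Kv4 potassium channels, was at 3.49 and 0.323 RPKM, below the 5 RPKM of the rule. Ncald was at 7.03 and 5.30 RPKM, and the ratio of Vsnl1 to Ncald went from 2.21 to 1.54. Ncs1 (2.27 and 3.33 RPKM) and Kcnip1 (1.15 and 1.37 RPKM) were higher. So was Kcnip2, at 0.0397 RPKM in control cells and 1.07 RPKM in mutant cells. Whole reads could not be recovered for it, and its control value may stand in for no reads.

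Of 9 copines, 5 were measured, 1 higher and 4 lower, with a median of -0.40, beside 67.1% lower over all symbols. Cpne5 at -0.46 was close to Cpne1 (-0.40), Cpne3 (-0.33) and Cpne6 (-0.51), and Cpne8, the most abundant copine, was at 46.7 and 47.1 RPKM. Of 5 IgLON genes, 3 were measured and all were lower, beside the same 67.1% over all symbols. Lsamp (2.09 and 0.286 RPKM) and Negr1 (1.64 and 0.368 RPKM) were low genes and stood further below their control levels than Ntm.

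Genes whose proteins are reported to bind or act with Popeye proteins were split in a way that moved with the scaling. Of 12 listed, 10 were measured, 5 higher and 5 lower with a median of 0.01, beside 32.9% higher and 67.1% lower over all symbols. With centring on genes of the same level, 7 were higher and 3 lower, and by design about as many of all symbols are lower as higher. With centring on cardiac muscle genes, which lowers every log2 ratio by 0.21, 2 were higher and 8 lower. The share of all symbols under this last centring was not worked out. Ndrg4, which is needed for heart muscle growth in fish, was at 67.5 and 66.6 RPKM, a difference within counting error. Xirp1, an actin-binding protein of the intercalated disc, was at 32.6 and 23.7 RPKM, 1.37-fold lower (1.35 to 1.40). Among the other proteins that bind cyclic AMP, 5 of 10 were measured, 1 higher and 4 lower, with a median of -0.13, beside 67.1% lower over all symbols. Prkar1a, a regulatory subunit of protein kinase A, was at 204 and 186 RPKM, and Prkar1b at 6.52 and 9.23 RPKM.

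**Figure D3:**
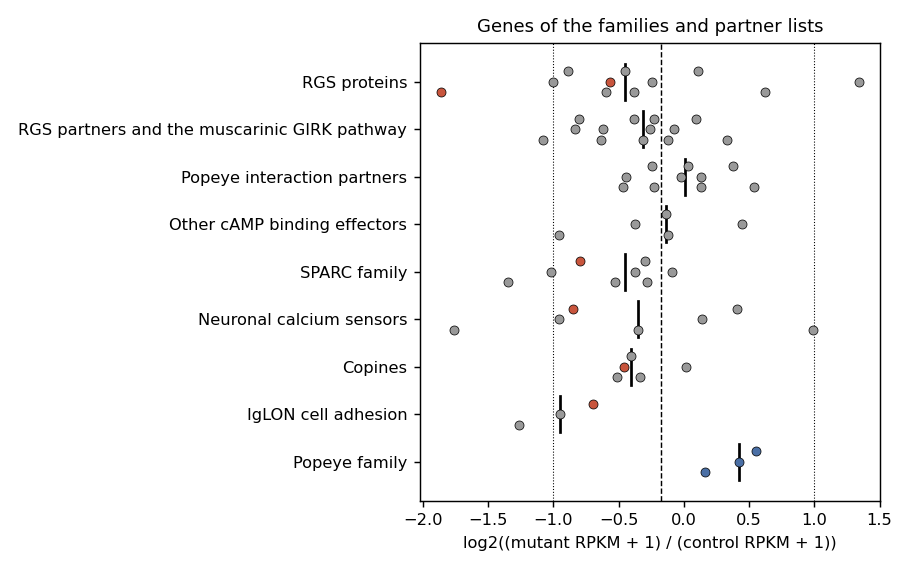
Log2 ratio, log2((mutant RPKM + 1)/(control RPKM + 1)), of each measured gene of the family and partner lists, with node markers in red, Popeye genes in blue, other genes in grey and list medians as thick bars. The dashed line is the median of all symbols (-0.18) and the dotted lines mark 1 and -1. The IgLON list has the lowest median (-0.95, 3 genes) and the Popeye family the highest (0.42, 3 genes, with Popdc3 negative after centring on cardiac muscle genes).

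Marker lists of other cell types were read in the same libraries. Over all symbols, 67.1% were lower and 32.9% higher. Of all genes at 5 RPKM, 2.68% were called lower and 1.01% called higher. Of 12 pacemaker markers 11 were measured and all 11 were lower, with a median of -0.95 and a summed level of 129 RPKM in control cells and 58.9 RPKM in mutant cells. Of these 5 were called lower by size, 1 of them Isl1, the floxed gene, and without it 10 of 10 were lower, with 4 called and a median of -0.88. Hcn4, which drives the recombinase, was low in both, at 1.99 and 0.541 RPKM. Markers of fibroblasts and mesenchyme, cells that also can make Smoc2, were all lower too: 9 of 9, with 4 called, a median of -0.98 and sums of 435 and 205 RPKM. All 6 erythroid genes measured (sums 316 and 51.9 RPKM) and all 6 macrophage and blood genes (39.6 and 7.03 RPKM) were lower. Endothelial genes summed to 22.0 and 11.4 RPKM, 6 of 7 lower, and neuron and glia genes, the cell types for which Vsnl1 and Ntm are best known, to 10.9 and 11.5 RPKM, 3 of 5 lower, with a median of -0.46. That sum rested on Nefl, a neurofilament gene (3.36 and 7.65 RPKM), and without it came to 7.53 and 3.84 RPKM. No marker measured was listed at 0, which says nothing of the cell types present, since small values in the table may stand in for no reads. The part of these cell types in the lower levels of the node markers was not tested.

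Muscle markers were mostly higher, as the Popeye genes were, against 32.9% higher over all symbols. Of 7 working atrial genes 6 were higher, with 2 called (Nppa and Nppb), a median of 0.62 and sums of 2337 and 4169 RPKM. All 4 ventricular genes measured were higher (sums 622 and 852 RPKM), as were 6 of 9 general cardiac muscle genes (sums 11601 and 16063 RPKM, median 0.21). Popdc2 at 0.42 and Bves at 0.56 lay above that general muscle median and Popdc3 at 0.16 below it. Smooth muscle genes summed to 953 and 1538 RPKM with a median of 0.44, with 1 called higher (Tagln) and 1 called lower (Mylk, at 5.71 and 0.670 RPKM). Epicardial genes summed to 83.2 and 102 RPKM with a median of -0.04, and to 73.4 and 73.2 RPKM without Krt19, the 1 called higher. The part of muscle content in the Popeye levels was not tested.

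**Figure D4:**
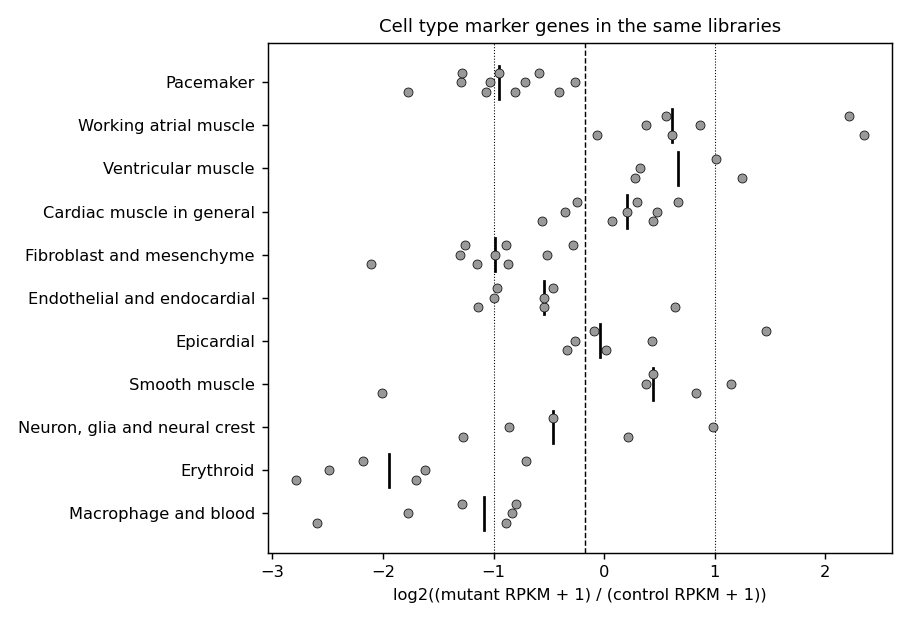
Log2 ratio, log2((mutant RPKM + 1)/(control RPKM + 1)), of each measured cell type marker, with list medians as thick bars, the median of all symbols (-0.18) as a dashed line and 1 and -1 as dotted lines. Pacemaker (-0.95), fibroblast (-0.98), macrophage (-1.09) and erythroid (-1.94) medians lie to the left, and working atrial (0.62) and ventricular (0.67) medians to the right.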

How the data were processed

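Gene expression was measured by RNA sequencing in 1 control and 1 Isl1 mutant library, made from 10 ng of total RNA with oligo(dT) beads and a SMARTer kit and sequenced in 90 bp pairs, per the labels' protocols. Trim Galore, FastQC, TopHat2, Bowtie2 and, as genome build, mm9 come from the submitters' processing notes. The counting tool and its use of strand were not given in the sources used here. For each of 12557 genes the authors deposited 1 value per library, in a unit the header does not name. The deposited values were identified as RPKM from their steps: in 287 small RNA genes with 1 exon, value times length was a whole number of reads (tolerance 0.01) in 287 control and 279 mutant values. The log2 fold the authors deposited equals the log2 ratio of both values within 1.89e-07, and their deposited signed fold score was not used.

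From these steps the library totals and, for 12455 genes (99.2%, tolerance 0.0001), whole reads were recovered. The number is the smallest that fits both values ("at least"), so intervals can be wider than needed. Since each genotype has a single library, no p-value was computed. Intervals (95%) are Clopper-Pearson for folds, conditional on the reads of both libraries, and exact Poisson for levels. The size rule used a pseudocount of 1 RPKM, a 2-fold threshold and 5 RPKM in at least 1 library, and list medians 1 RPKM. Where a symbol recurred, its entry of highest mean was used, and every symbol reached at least 1.00 RPKM in 1 library. The members and lists were chosen with earlier results of these data known. Genes named are Isl1, the 9 members, their 2 nearest genes on each side, all measured genes of their families, other list genes past the size rule or among the 2 highest in their list, and the 2 genes closest to each member in log2 RPKM over both libraries. Of these, marker and neighbouring genes are given mostly as sums and counts, and Hcn4 and Nefl are named outside the rule, Nefl after its values were seen. Alternatives were other pseudocounts, scalings, filters, thresholds and means, and, added after seeing the data, centring on cardiac muscle genes and marker lists without 1 gene. Promoter windows came from RefSeq (GRCm38.p6), matched by symbol, with no coordinates shared with mm9. Scripts ran in Python 3.11.15 with scipy 1.17.1 and were tested on simulated data.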

Additional observations from a re-analysis of the deposited data

How the results depend on the processing

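The count of the 9 genes called lower by size was 1 as reported. With ratios centred on cardiac muscle genes, chosen after seeing the data, it was 3 (Rgs4, Vsnl1 and Smoc2, against 5.83% of all genes at 5 RPKM). With a 1.5-fold threshold on the log2(RPKM + 1) scale it was 4 (these and Ntm, against 11.8% of all genes at 5 RPKM). The median log2 ratio of the 9 genes, -0.57 as reported, was -0.50 with a pseudocount of 5 RPKM, with centring on genes at 5 RPKM in both libraries or on genes of the same level, -0.45 with equal upper quartiles or as a mean, -0.77 with centring on cardiac muscle genes and -0.63 at 10 RPKM. It was -0.51 without Smoc2, Vsnl1, Ntm or Rgs4 and -0.63 without Cpne5, Bves, Popdc2 or Popdc3. List genes past the size rule numbered 26, but 14 with a pseudocount of 5 RPKM and 46 at 1.5-fold, where a gene in more than 1 list counts in each. Over all genes at 5 RPKM, 2.68% were called lower and 1.01% higher as reported. These shares were 0.568% each with that pseudocount, and 11.8% and 3.77% at 1.5-fold. Centring subtracted a median of -0.07 (5279 genes) or 0.21 (cardiac muscle genes), and equal upper quartiles raised the mutant values by 0.12 on the log2 scale. Popdc3 (0.16) reversed to -0.048 with centring on cardiac muscle genes. The Popeye partners (0.01) reversed to -0.019 as a mean, the copines to 0.013 at 10 RPKM, where 1 gene was left, and the epicardial list (-0.04) to 0.032, 0.069 and 0.079 under the planned scalings, 0.22 at 10 RPKM and 0.21 as a mean. The direction of the other 8 members held under every alternative run. No paired analysis was possible because each genotype has 1 library, and for the same reason no library could be left out. The share of calls that were lower over all genes at 5 RPKM, 72.6% as reported (170 lower, 64 higher), was 63.8% with centring on genes at 5 RPKM in both libraries (134 and 76), 58.9% with equal upper quartiles (122 and 85), 53.5% with centring on genes of the same level (100 and 87), and 90% with centring on cardiac muscle genes (370 and 41). It was 50% with a pseudocount of 5 RPKM (36 and 36) and 77% with 0.1 RPKM (265 and 79). The size rule itself leaves out genes under 5 RPKM, and without that filter 33 list genes passed it. The median of the RGS partners, -0.32 as reported, was -0.084 with centring on genes of the same level and -0.16 with a pseudocount of 5 RPKM.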

Other observations

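The genes on either side of the members went both ways. Around Rgs4, Nuf2, a kinetochore gene 210013 bp before it, was at 5.21 RPKM in control cells and 8.84 RPKM in mutant cells, and Hsd17b7, 201893 bp after it, at 7.61 and 7.52 RPKM. Thbs2, a matrix gene 260710 bp after Smoc2, was at 5.55 and 1.97 RPKM, 2.82-fold lower, while Mllt4 before Smoc2 was at 6.47 and 4.09 RPKM. Smc6, only 5462 bp before Vsnl1, was at 13.8 and 13.2 RPKM. On chromosome 10, Prep, a peptidase gene 130308 bp before Popdc3, was at 17.4 and 9.16 RPKM, 1.90-fold lower, and Atg5 before it at 12.8 and 10.6 RPKM. Dpf3, a chromatin gene 54977 bp after Rgs6, was at 11.1 and 7.44 RPKM, 1.496-fold lower, close to the fold of Rgs6.

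The genes closest to each member in log2 RPKM, by distance over the values of both libraries, were of mixed kinds. Those closest to Rgs4 were Hba-a2, a globin gene at 53.3 and 10.2 RPKM, and Il1f9 at 41.8 and 15.7 RPKM, at distances of 0.342 and 0.376. Smoc2 had Zfp36 at 176 and 109 RPKM and Gsn at 133 and 96.4 RPKM, at 0.193 and 0.336. For Rgs6 they were Ctnnb1, the beta-catenin gene, at 34.3 and 23.0 RPKM, and Txnip at 35.2 and 22.5 RPKM. Popdc2 had Calr, a chaperone gene of the endoplasmic reticulum, at 163 and 218 RPKM, and Ilk, the integrin-linked kinase gene, at 174 and 220 RPKM. For the low genes (Vsnl1, Cpne5, Ntm, Bves and Popdc3) the distances were 0.0486 or less, as many genes share such levels, and with 1 library per genotype this likeness rests on 2 values.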
